A study of Solanum tuberosum with 2 samples.

Results

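A set of 4 potato genes were followed, CASP-like protein 1 (PGSC0003DMG400022659), peroxidase 64-like (PGSC0003DMG400003654), dirigent protein 24-like (PGSC0003DMG400030182) and LOB domain-containing protein 16-like (PGSC0003DMG400020069). They were 4 of the 40430 genes quantitated and were chosen by their annotated names, which belong to families known from the endodermis and from lateral roots. The choice was made among genes that the study had selected for a difference between control and ultrasonicated material. The expression values described here were already known when the 4 genes were picked, so their values are given as a description, without a test. RNA-seq had been carried out on 2 libraries of wild type cv. Desiree grown in vitro. The first was made from cut explants, single-node segments with a leaf taken from plantlets 4 w of age and, according to the supplementary annotation of the study, sampled at 0 h without ultrasonication. The second was made from uncut plantlets of the same age. If the cut library was also the 0 h control of the study's selection, the 4 genes may have entered through their value in it. Biological replicates had been pooled, at a stage that the sources do not settle. With a single pooled library on either side, no difference has a replicate check. The labels give leaf as the tissue of both libraries, whereas the protocol speaks of whole plantlets for the uncut one, so whether roots entered the uncut library is not settled.

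The Casparian strip is a band of lignin in the walls of the root endodermis that blocks the passage of water and solutes between cells. In *Arabidopsis*, CASP proteins form a scaffold in the plasma membrane below this band, peroxidase 64 polymerises lignin there, dirigent proteins such as ESB1 guide where lignin is laid down, and the CIF peptides, made in the stele, report through their receptor whether the band is closed. LBD16 of *Arabidopsis* is a transcription factor of lateral root initiation, and it also acts in callus formation. CASP-like, peroxidase, dirigent and LOB domain proteins are large families in plants, and not every member is confined to roots. Which *Arabidopsis* gene each of these potato genes corresponds to was not tested.

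The supplementary primer list of the study holds RT-qPCR primers for dirigent protein 24-like and LOB domain-containing protein 16-like. They are shown, from 5′ to 3′, because they are the sequences the study used to measure these genes by a second method. That measurement was made on control and ultrasonicated material and did not compare cut explants with uncut plantlets. The primers were not aligned to a transcript here.
dirigent protein 24-like, forward: caacaaacactggagcag
dirigent protein 24-like, reverse: ttagagtggtccaaagcc
LOB domain-containing protein 16-like, forward: cctgtctttggttgtgtt
LOB domain-containing protein 16-like, reverse: ccacttgatgatgccatatt
The dirigent primers were 18 nt long with a GC content of 50% each. The LOB domain primers were 18 and 20 nt long, with a GC content of 44.4% and 40%. The top BLAST hits of CASP-like protein 1, dirigent protein 24-like and LOB domain-containing protein 16-like were potato proteins whose accessions are in the RefSeq gene table of SolTub_3.0, so 3 of the 4 genes could be matched, to LOC102602009, LOC102592742 and LOC102588262. The top hit of peroxidase 64-like was a protein of peach (*Prunus persica*).

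Expression was deposited as log2 RPM, reads scaled to a common total per sample, from which the reads of each gene were recovered. The totals behind the scaling were 33850938 reads in the cut and 37955486 reads in the uncut library. For a gene without reads a limit of 3 reads was taken, which amounts to 0.0886 RPM in the cut and 0.0790 RPM in the uncut library. Intervals are exact 95% intervals that treat each read as independent and cover counting error only. To judge sizes, a gene needed 50 reads or more in the sum of both libraries and a log2 difference (cut minus uncut) of 2 or more in either direction, called the rule of size here. By this rule 7.35% of the 21688 genes with enough reads were lower in the cut explants and 8.25% were higher, and the median difference of all these genes was -0.33.

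Of the 4 genes, 2 were lower in the cut explants by the rule of size, 1 was not past it, and 1 had too few reads to be judged. The share of lower genes is set beside the 7.35% of all genes, but nothing is read from it, since the genes were picked with these values known. CASP-like protein 1 was 74.2-fold lower, peroxidase 64-like 4.65-fold lower and dirigent protein 24-like 1.55-fold lower in the cut explants. LOB domain-containing protein 16-like was the only one of the 4 with more reads in the cut than in the uncut library.

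**Figure D1:**
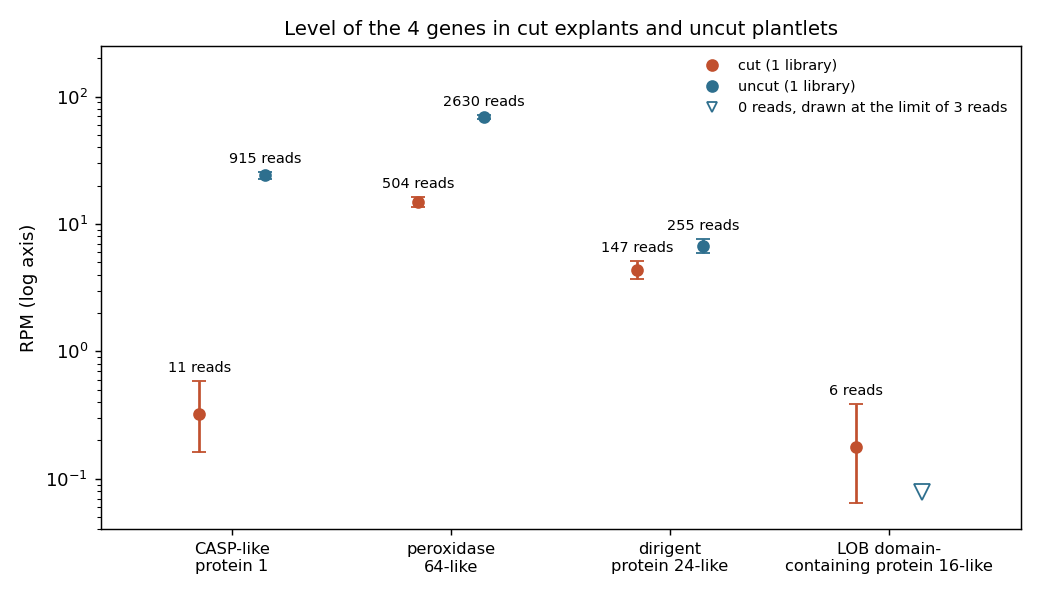
Expression level (RPM, log axis) of the 4 genes in the cut (left point of each pair) and uncut (right point) library, 1 library each, with exact 95% Poisson intervals that cover counting error only and the reads behind each value. The points of CASP-like protein 1 stand at 0.325 and 24.1 RPM, those of dirigent protein 24-like at 4.34 and 6.72 RPM, and LOB domain-containing protein 16-like had 0 reads in the uncut library, drawn as a triangle at the limit of 0.0790 RPM.

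CASP-like protein 1 bears the name of the membrane scaffold proteins of the Casparian strip. The gene lies on chromosome 1, 58572019 to 58575739 on the minus strand of SolTub 3.0, a span of 3721 bp. It had 11 reads in the cut explants, or 0.325 RPM (95% interval 0.162 to 0.581), against 915 reads in the uncut plantlets, or 24.1 RPM (22.6 to 25.7). The intervals were far apart, and the log2 difference was -6.21 (-7.22 to -5.37). Of the 21688 genes with enough reads, 28 (0.129%), this gene included, were lower by as much or more. Among these 28 genes, 18 had 0 reads in the cut library and stood at the value deposited for genes without reads, and 10, again with this gene, had reads in both libraries. Per kb of gene span, introns included, its level was 0.0873 RPM in the cut and 6.48 RPM in the uncut library. In the cut library 6.32% of the genes with reads lay below it on this scale, and 54.8% did in the uncut library.

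Peroxidase 64-like belongs to the class of secreted haem peroxidases that use hydrogen peroxide to couple lignin precursors, and the study's annotation assigns it to phenylpropanoid biosynthesis. It lies on chromosome 2, 39070255 to 39074938 on the plus strand, a span of 4684 bp. It had 504 reads in the cut explants, or 14.9 RPM (13.6 to 16.2), against 2630 reads in the uncut plantlets, or 69.3 RPM (66.7 to 72.0). The uncut level was the higher one well beyond counting error, with a log2 difference of -2.22 (-2.36 to -2.08). A total of 1226 genes (5.65%) were lower by as much or more. The call depends on the scaling, since the difference relative to the median of all genes was -1.89, which is not past 2. Among the 4 genes it had the highest level per kb of span in both libraries, 3.18 RPM in the cut and 14.8 RPM in the uncut one, although in the cut library dirigent protein 24-like was close behind with 3.16 RPM.

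Dirigent protein 24-like belongs to a family of cell wall proteins that direct the coupling of phenolic radicals. It lies on chromosome 4, 6664537 to 6665910 on the plus strand, a span of 1374 bp. It had 147 reads in the cut explants, or 4.34 RPM (3.67 to 5.10), against 255 reads in the uncut plantlets, or 6.72 RPM (5.92 to 7.60). The intervals did not overlap, yet the log2 difference of -0.63 (-0.93 to -0.33) was small, and 7920 genes (36.5%) were lower by as much or more. Relative to the median of all genes the difference was -0.30, with an interval that reached 0.

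LOB domain-containing protein 16-like is named after a regulator of lateral root founder cells. It lies on chromosome 6, 58784168 to 58785839 on the minus strand, a span of 1672 bp. It had 6 reads in the cut explants, or 0.177 RPM (0.0650 to 0.386). In the uncut plantlets it had 0 reads, with an exact interval up to 0.0972 RPM and a limit of 0.0790 RPM at 3 reads. With its uncut count set to 3 and the 6 reads treated as exact, its level was 2.24-fold higher in the cut than in the uncut library. The exact interval of the ratio, with counting error in both libraries, began at 1.32-fold. If both reads of each pair were counted, so that fewer fragments than reads stand behind the values, and the reads are divided by 2, the interval began at 0.463-fold and held equal levels. With 6 reads in all, the gene was under the minimum of 50 reads, and its transcript was near the limit of detection in both libraries.

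The genes thus differed among themselves in how far the cut library lay below the uncut one. The log2 difference of CASP-like protein 1 minus that of peroxidase 64-like was -3.99 (95% interval -4.86 to -3.13, normal approximation on counting error). The log2 difference of peroxidase 64-like minus that of dirigent protein 24-like was -1.59 (-1.91 to -1.27). The ratio of CASP-like protein 1 to peroxidase 64-like, in RPM, was 0.0218 in the cut and 0.348 in the uncut library. Over the 4 genes the level summed to 19.7 RPM (668 reads) in the cut and 100.1 RPM (3800 reads) in the uncut library, and most of both sums came from peroxidase 64-like.

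**Figure D2:**
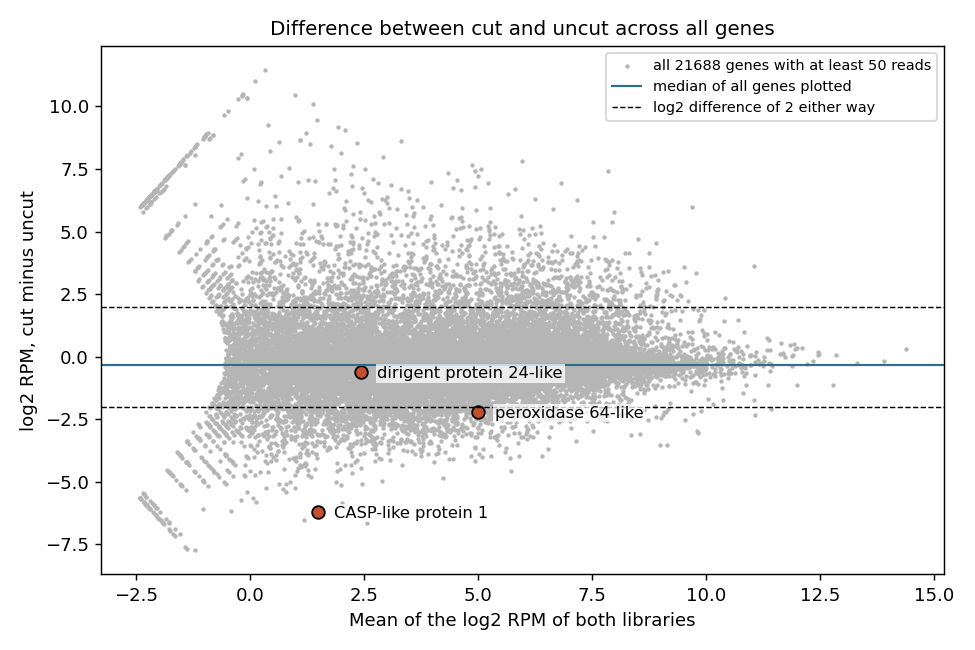
Difference between the libraries (log2 RPM, cut minus uncut) against the mean log2 RPM of both libraries for the 21688 genes with at least 50 reads (grey, genes without reads in a library at their deposited value, which gives the oblique lines at the left), with 3 of the 4 genes in red. CASP-like protein 1 at -6.21 lies at the lower edge of the cloud, peroxidase 64-like at -2.22 just past the dashed line of 2, and dirigent protein 24-like at -0.63 near the median of -0.33.

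No feature of the table overlapped any of the 4 genes. Of the 2 genes on each side of CASP-like protein 1, the one 654 bp away differed by -0.26 and the next on that side by 0.33, while on the other side one had no reads and PGSC0003DMG400022658, 12.4 kb away, had 14 reads in the cut and 134 in the uncut library, a difference of -3.09. Around peroxidase 64-like, 3 of 4 neighbours had enough reads, of which 2 differed by -0.80 and -0.24. The other, PGSC0003DMG400003655, 7.43 kb away, was higher in the cut explants by the rule of size, with 13573 reads in the cut and 1897 in the uncut library. Both named neighbours were picked after their values were seen, as those past the rule. The 4 neighbours of dirigent protein 24-like differed by -0.76 to -0.02, a range that holds the -0.63 of the gene itself. Of the 4 neighbours of LOB domain-containing protein 16-like, 2 had no reads in either library and 1 had enough reads, with a difference of -0.31.

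Other genes with named roles in the endodermal barrier were taken from the study's annotation. It holds only genes that the study selected for their response to ultrasonication, so these lists are no complete account of any pathway. If the cut library also served as the 0 h control of that selection, genes may have entered the lists through their value in it. The lists were also chosen with earlier results of these data known. Their counts and medians are given as a description, and nothing is read from their distance to all genes. Of the 3 endodermal genes, 1 was lower by the rule of size, beside 7.35% of all genes, and 2 were not past it. Protein CASPARIAN STRIP INTEGRITY FACTOR 2-like (PGSC0003DMG400030948), a relative of the peptides that report on the state of the strip, had 876 reads or 25.9 RPM in the cut explants against 12541 reads or 330.4 RPM in the uncut plantlets, a difference of -3.67 (-3.77 to -3.58). CASP-like protein 4D1 (PGSC0003DMG400027047), from another branch of the CASP-like family, had 1743 reads in the cut and 1742 in the uncut library, a difference of 0.17 (0.07 to 0.26). Scarecrow-like protein 3 (PGSC0003DMG400004649), whose *Arabidopsis* namesake acts in the root endodermis in gibberellin signalling, had 34.4 RPM in the cut and 41.7 RPM in the uncut library, a difference of -0.28 (-0.39 to -0.17) that became 0.06 relative to the median of all genes. The 2 CASP-like genes were therefore unlike, at -6.21 and 0.17, and the reads of CASP-like protein 4D1 were nearly equal in both libraries.

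Among 11 lignin and phenylpropanoid enzymes, 9 had enough reads, with a median difference of -2.05 beside -0.33 for all genes. Most of the 11 were peroxidases placed in the list by name, and whether they act on lignin was not tested. By the rule of size 5 of the 9 were lower and 1 was higher in the cut explants, beside 7.35% and 8.25% of all genes. Peroxidase 3-like (PGSC0003DMG400005273) had 8.74 RPM in the cut and 105.7 RPM in the uncut library, a difference of -3.60 (-3.77 to -3.43). Peroxidase 25 (PGSC0003DMG400025478) and probable peroxidase 61 (PGSC0003DMG400005872) had 0 reads in the cut explants, against 51 and 76 reads in the uncut plantlets. The exact interval of the log2 difference of probable peroxidase 61 lay below -4.16, and below -3.13 with the reads divided by 2. Laccase-4-like (PGSC0003DMG400011019) and laccase-12-like (PGSC0003DMG402027116), of the oxidases that polymerise lignin with oxygen, differed by -2.54 (-2.91 to -2.19) and -2.05 (-2.69 to -1.47). Phenylalanine ammonia-lyase (PGSC0003DMG402021549), the entry enzyme of the phenylpropanoid pathway, differed by only -0.49 (-0.53 to -0.46), with 356.7 RPM in the cut and 502.3 RPM in the uncut library. The higher gene was cytochrome P450 98A2-like (PGSC0003DMG400007180), of the family that hydroxylates lignin precursors, with 296 reads in the cut and 59 in the uncut library and a difference of 2.49 (2.08 to 2.92). With the median ratio, the upper quartile or a pseudocount of 0.1 RPM, 4 of the 9 genes were lower. After adding 1 RPM to each level, 2 were lower and 0 higher. With a minimum of 200 reads the median was -0.85.

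All 7 genes of xylem and secondary walls lay below 0, as did 63.2% of all genes with enough reads. By the rule of size 4 of the 7 were lower, beside 7.35% of all genes, and their median was -2.10. The lowest was COBRA-like protein 4 (PGSC0003DMG400024530), of a family that takes part in cellulose deposition, with 6.94 RPM in the cut and 42.4 RPM in the uncut library and a difference of -2.61 (-2.82 to -2.41). The highest was a xylem cysteine proteinase 1-like gene (PGSC0003DMG400009921), with a difference of -0.14 (-0.34 to 0.05). Relative to the median of all genes, 2 of the 7 genes were past 2. Among 6 genes of suberin, cutin and wax, 5 had enough reads, with a median of 0.52. Of these, 1 was lower and 1 higher, beside 7.35% and 8.25% of all genes. Alkane hydroxylase MAH1-like (PGSC0003DMG400031199), named after an enzyme of stem wax, had 0 reads in the cut and 104 in the uncut library. The exact interval of its log2 difference lay below -4.63, and below -3.60 with the reads divided by 2. On a log2(RPM + 1) scale 0 of the 5 genes were lower and 1 was higher, and with a minimum of 200 reads the median was 1.14. ABC transporter G family member 11-like (PGSC0003DMG400012547), named after an exporter of cuticular lipids, had 411 reads in the cut library and 1 read in the uncut library, a log2 difference of 8.85 (6.36 to 14.2).

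**Figure D3:**
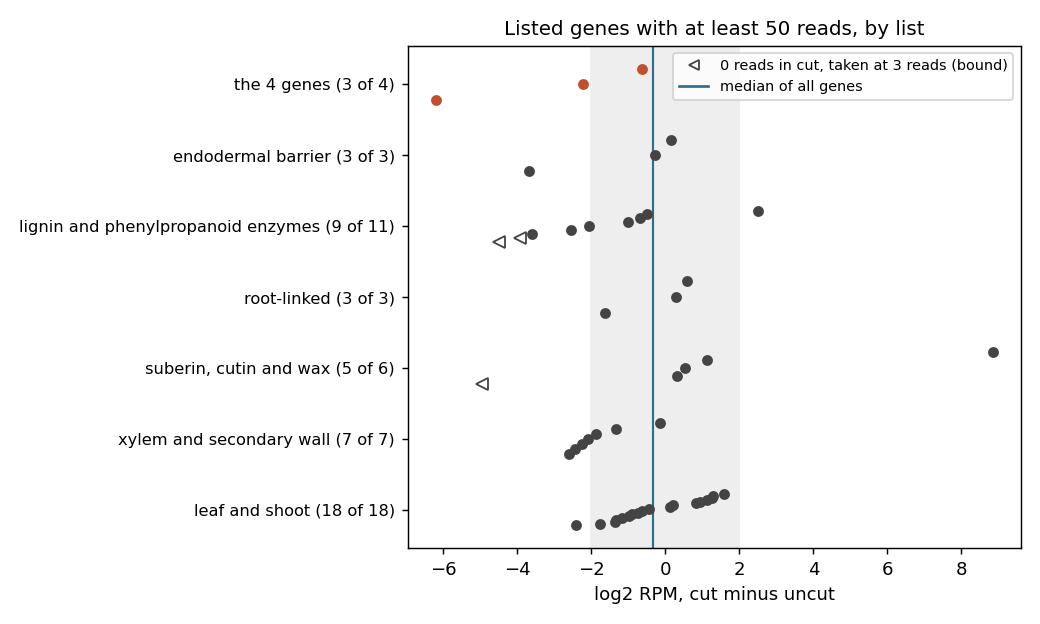
Log2 RPM difference (cut minus uncut) of each listed gene with at least 50 reads, by list, with the number with enough reads of the number listed, the range within 2 shaded and the median of all genes as a line. Open triangles are genes with 0 reads in the cut library, taken at 3 reads. The 7 genes of xylem and secondary walls lie between -2.61 and -0.14, and the 18 leaf and shoot genes between -2.42 and 1.59.

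Genes linked by name to roots and to leaves were set beside the 4 genes. All 3 root-linked genes had reads in both libraries, and none was past the rule of size. Their level summed to 522.0 RPM in the cut and 417.7 RPM in the uncut library. Metal transporter Nramp5 alone made up 413.2 RPM and 273.7 RPM of these sums, so the sums mostly follow that gene. Protein RSI-1 (PGSC0003DMG402015689), a tomato gene of lateral root initiation by name, had 816 reads in the cut and 2848 reads in the uncut library, a difference of -1.64 (-1.75 to -1.53). Metal transporter Nramp5 (PGSC0003DMG400027964), named after the manganese uptake protein of rice roots, had 413.2 RPM in the cut and 273.7 RPM in the uncut library, a difference of 0.59 (0.56 to 0.63). The name of this gene rests on a top hit from *Gossypium barbadense*, and it was not matched to a RefSeq gene of potato. Protein NRT1/ PTR FAMILY 7.3-like (PGSC0003DMG400024120), named after a nitrate transporter that loads the root xylem in *Arabidopsis*, differed by 0.30 (0.22 to 0.37). These genes also had reads in the cut library of leafy node segments, and whether their levels follow root content was not tested.

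All 18 leaf and shoot genes had reads in both libraries. Their level summed to 1988 RPM in the cut and 1369 RPM in the uncut library. Photosystem II protein D1 (PGSC0003DMG400004211) alone made up 1318 RPM and 747.0 RPM of these sums. This gene and those of photosystem II protein D2 and CP47 are named as chloroplast genes but lie on chromosomes 1 and 9. Whether their reads came from plastid transcripts was not tested. Of the 18 genes, 0 were higher and 1 was lower by the rule of size, with a median of -0.54. Beside 63.2% of all genes below 0, 8 of the 18 lay above 0 and 10 below. The highest was transcription factor FAMA (PGSC0003DMG400015760), which drives guard cell formation, with 9.51 RPM in the cut and 3.16 RPM in the uncut library and a difference of 1.59 (1.28 to 1.90). The lowest was chlorophyll a-b binding protein 50 (PGSC0003DMG400013416), with 5.17 RPM in the cut and 27.7 RPM in the uncut library and a difference of -2.42 (-2.66 to -2.19). Only uniquely aligned reads were counted, and whether similar copies took reads from genes of large families, such as chlorophyll a-b binding proteins and peroxidases, peroxidase 64-like among them, was not tested. In such bulk samples fewer cells of a type and less RNA per cell cannot be told apart, and cutting and organ content cannot be told apart either, because node segments were set against plantlets.

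The genes of the study's annotation with the most similar pair of levels were found by the Euclidean distance between their log2 RPM in both libraries, over 322 genes with a name and only 2 libraries. Nearest to CASP-like protein 1 was non-specific lipid-transfer protein-like (PGSC0003DMG400031127, chromosome 1), at a distance of 0.48, with 8 reads in the cut and 826 in the uncut library and a difference of -6.52. The next was TTS protein (PGSC0003DMG400029695, chromosome 2), already 1.54 away, with 32 reads in the cut and 896 in the uncut library. Peroxidase 64-like had endo-1,4-beta-xylanase A-like (PGSC0003DMG400008413) and NAC transcription factor 29-like (PGSC0003DMG400002824) nearest, each at a distance of 0.50. These 2 genes differed by -1.51 and -1.52. Nearest to dirigent protein 24-like were salicylic acid-binding protein 2-like (PGSC0003DMG400025825), at 0.19, and chitinase 2-like (PGSC0003DMG400015523), at 0.27. For LOB domain-containing protein 16-like no nearest gene is given, since its distances rest on the value deposited for 0 reads.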

How the data were processed

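Total RNA was purified and oligo(dT)-enriched libraries were prepared with a stranded kit. The submitters' processing notes name CASAVA 1.7, Trim Galore 0.5.0 and HISAT2 2.1.0. By the methods of the ultrasonication study, which states that the cutting experiment was processed alike save for small changes, the authors kept uniquely aligned reads on SolTub 3.0, counted reads over exons of each gene in SeqMonk, divided by the total reads and deposited log2 RPM values. Whether strand was used in counting is not given in the sources used here.

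Reads were recovered from the deposited log2 values, which stepped in whole multiples: 100% of the 19865 values tested in the cut and of the 18254 in the uncut library (up to 2000 reads) were whole within 0.05 read. Genes without reads stood at the value of 0.9 read. Reads summed over genes were 1.77 times the total in both libraries. Whether both reads of a pair were counted is not settled, so intervals may be too narrow. Of genes with 1 to 20 reads, 47.2% in the cut and 45.1% in the uncut library had an even count.

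With 1 library per condition no test was run and no p-value is given. The rule of size was a log2 difference of at least 2 with at least 50 reads over both libraries. Any listed gene could be named, with values for the largest difference in either direction, all genes of lists of 3 and the 2 genes nearest in level to each of the 4, save the one with 0 reads in a library. The genes and lists were chosen with earlier results of these data known. Other scalings, pseudocounts, read minima and differences were tried. Ratio intervals are Clopper-Pearson and those of a level Poisson. The procedure was tested on simulated reads. Computation was in Python 3.11.15 with pandas 2.3.3, scipy 1.17.1 and numpy 2.4.6, and plotting in matplotlib 3.10.9.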

Additional observations from a re-analysis of the deposited data

How the results depend on the processing

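Over the 4 genes, 25 values were computed under 7 other settings, of which 5 fell outside the counting interval of the main value and 0 changed sign. The count of signs was partly fixed in advance. Halving the reads leaves each difference as it was, and a pseudocount cannot change its sign. On a log2(RPM + 1) scale the difference of CASP-like protein 1 was -4.24. That of LOB domain-containing protein 16-like was 0.24, with its uncut count kept at 0. Peroxidase 64-like stood at -1.89 with scaling by the median ratio, under the difference of 2, and at -2.07 with the upper quartile, and dirigent protein 24-like at -0.30 with the median ratio. These scalings moved all genes by 0.33 and 0.15. With reads halved, the interval of CASP-like protein 1 was -7.75 to -5.03. Across all genes, 3007 were higher and 2486 lower with no read minimum, 3550 and 4881 at a difference of at least 1, 937 and 528 at a difference of at least 3, and 857 were lower on log2(RPM + 1), in place of 1789 higher and 1595 lower. List medians under the median ratio were -1.89 for the 4 genes, 0.055 for the endodermal genes, which changed sign, 0.63 for the root-linked genes and -0.21 for the leaf and shoot genes. With at least 200 reads they were -0.85 for the lignin enzymes and 1.14 for suberin, cutin and wax, and on log2(RPM + 1) -1.23 for the lignin enzymes and -1.46 for xylem and secondary walls. The pseudocount shrinks low genes by construction, a scaling shifts every gene alike, and for the others the cause was not tested. Depth limits LOB domain-containing protein 16-like, at 6 reads. No paired analysis was possible because a lone library stood on each side, so none could be left out either.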
